A study of Mus musculus with 21 samples.

Results

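The genes described here carry the signal of the T cell receptor from the cell surface to the nucleus in mouse T cells. They are 38 of the 55487 genes in the deposited count tables and were listed by name and function, with no measured value in the rule: 4 CD3 chains of the receptor complex, 3 accessory surface receptors, 5 kinases, 7 adaptors and exchange factors, 3 genes of the second messenger branch, 4 genes of the NF-kB branch, 3 NFAT factors and 9 inhibitors. All 38 were found by Ensembl identifier, and each had at least 309 reads in every library, so that all 38 passed the filter on low counts in each comparison. Counts are less certain where exons overlap another annotated gene, as in Cd3e (Gm48719), Cd247 (Gm16565 and Pou2f1), Lcp2 (4930469K13Rik), Themis (4930519F09Rik), Plcg1 (Gm27206 and Zhx3), Nfatc3 (Esrp2), Ptpn6 (Gm20531), Dgka (Pmel), Dgkz (Gm9821), Lck (Mir8119) and Lat (Mir7058).

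The 21 libraries came from T cells of mouse spleen in 4 groups. TX2 (n = 7) are T cells recovered after a second transplantation: cells of Tet2/3 DKO origin that had already expanded in one recipient were moved into another. TX1 (n = 4) are T cells recovered after CD4 cells of DKO mice were transplanted once. DKO (n = 5) are T cells taken directly from mice of genotype Tet2-/-Tet3flx/flxCD4cre, in which Tet2 is deleted in all cells and Tet3 is removed by a Cre recombinase under the Cd4 promoter, and WT (n = 5) are T cells of wild type mice. TX2, TX1 and DKO therefore share 1 genotype. DKO and WT cells were sorted as CD4+CD25-TCRb+ cells that did not bind the aGalCer-CD1d tetramer, whereas the donor cells in recipients were sorted as live CD45.2+CD45.1- cells, so a transfer and a change of sort cannot be told apart. All WT libraries are male. TX2 replicates 5 to 7, TX1 replicate 3 and DKO replicate 2 are female, and DKO replicates 4 and 5 are described as young. Other ages and the strain of the recipients are not given in the sources used here.

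T cell receptor signalling begins when the receptor binds peptide on an MHC molecule. The kinase Lck phosphorylates the CD3 and zeta chains, Zap70 binds to them and phosphorylates the scaffold Lat, and Lat gathers Grb2, Grap2, Lcp2, Vav1 and Plcg1. Plcg1 cuts a membrane lipid into a calcium-releasing messenger, which turns on the phosphatase calcineurin and the NFAT factors, and diacylglycerol, which recruits Rasgrp1 for the Ras-MAPK branch and Prkcq for the NF-kB branch through Bcl10 and Malt1. Csk, tyrosine phosphatases, ubiquitin ligases and diacylglycerol kinases limit the signal. TET enzymes oxidise methylated cytosine in DNA and so take part in its removal.

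Each library held 26918548 to 30730877 reads assigned to genes. Tet3 averaged 72.7 ± 11.9 in TX2, 83.5 ± 8.23 in TX1, 94.2 ± 7.70 in DKO and 198 ± 18.6 in WT (CPM, read counts scaled to a library of 1000000 reads, mean ± SD, n = 7, 4, 5 and 5). Tet2 averaged 23.3 ± 5.09, 40.4 ± 18.8, 47.2 ± 6.01 and 43.9 ± 8.78 CPM in the same order of groups. Reads of Tet2 and Tet3 are counted over the whole gene, so neither level checks the deletion. Cd4 was at 0.63 to 2.25 CPM in TX2 and 0.131 to 1025 CPM in TX1, against 1064 to 1772 CPM in DKO and 1457 to 1554 CPM in WT, so the coreceptor that defines the labelled lineage was near 0 in TX2. The receptor constant gene Trac was at 569.6 CPM or more in every library. The summed level of 6 CD4 T cell markers was 2275 to 3942 CPM in TX2, 3617 to 4725 in TX1, 4946 to 6741 in DKO and 6017 to 8119 in WT. These markers did not move together. Thy1 ran at 35.85 to 909 CPM in TX2, 349.7 to 747 in TX1, 947 to 1487 in DKO and 1219 to 1356 in WT. In the same order, Cd28 ran at 359 to 565, 348 to 487, 356 to 489 and 234 to 536 CPM. Il7r ran at 199 to 695, 383 to 1780, 153 to 349 and 545 to 846 CPM. Trbc2 ran at 662.5 to 1039, 755 to 1138, 619.5 to 1272 and 909 to 1173 CPM. Summed markers of other cells reached at most 166 CPM for B cells, 93.1 for neutrophils and 555 for erythroid cells in TX2, 61.2, 1.13 and 4.55 CPM in TX1, 116, 142 and 4.31 CPM in DKO, and 14.8, 55.6 and 26.1 CPM in WT. Summed NK cell markers were 76.8 to 451 CPM in TX2, 68.9 to 319 in TX1, 55.6 to 187 in DKO and 22.4 to 44.6 in WT. The list did not move as 1: Eomes reached 409 CPM in TX2 and Klrb1c 319 CPM in TX1. Ncr1, Klre1 and Tyrobp reached at most 14.5, 0.348 and 4.18 CPM in TX2 and 0.308, 0.164 and 0.274 CPM in TX1. Their highest values were 2.82, 1.8 and 6.06 CPM in DKO and 1.85, 1.475 and 10.5 CPM in WT. Summed macrophage markers were 6.34 to 92.1, 3.57 to 33.8, 17.9 to 80.7 and 9.24 to 146 CPM in the same order of groups, and dendritic cell markers 11.1 to 25.1, 9.82 to 21.9, 5.90 to 20.7 and 1.65 to 8.63 CPM. The gamma-delta T cell list summed to 1027 to 1628 CPM in TX2, 301 to 1562 in TX1, 33.3 to 177 in DKO and 11.8 to 16.9 in WT, while its defining gene Trdc was at 0 in every TX2 library. CD8 markers summed to at most 0.412 CPM in TX2, 0.0701 in TX1 and 6.39 in DKO, against 30.8 to 40.5 CPM in WT. The WT sum was nearly all Cd8b1, at 30.4 to 40.1 CPM. Cd8a was at 0.230 to 0.441 CPM in WT and at most 2.59 CPM in DKO. The part of these cell types in the results below was not tested, and in such bulk samples fewer cells of a type and less RNA per cell cannot be told apart.

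In every transplanted library 1 receptor made up most of the receptor reads. The junction sequences of the receptors found in TX2 are printed because the values of many genes below divide by them. Receptor 1 was the most abundant alpha chain rearrangement in TX2 replicates 1 to 4, all male, with 95.3, 95.1, 95.7 and 95.7% of the alpha chain reads. Receptor 2 took 85.6, 83.2 and 88.1% in TX2 replicates 5 to 7 and 84.1% (95% interval 82.7 to 85.5%) in TX1 replicate 3, all female. Each of the other TX1 libraries was led by a receptor of its own, at 83.2% in replicate 1, 75.4% in replicate 2 and 88.1% in replicate 4. The most abundant alpha chain took 77.9% (95% interval 76.7 to 79.1%) in DKO replicate 2, 3.86 to 12.5% in the other DKO libraries and 0.218 to 1.66% in WT libraries. WT replicates 2 and 5 shared both of their most abundant alpha rearrangements and 117 alpha rearrangements in all, against 54 to 92 in other WT pairs, and whether they share a source was not tested. The junctions are given 5′ to 3′ as deposited, in lower case, with the alpha chain (TRA) and the beta chain (TRB) of each receptor:
receptor 1, TRAV9N-3 with TRAJ23: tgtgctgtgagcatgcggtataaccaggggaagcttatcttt
receptor 1, TRBV13-3 with TRBJ1-1: tgtgccagcagtgatacagaagtcttcttt
receptor 2, TRAV8N-2 with TRAJ18: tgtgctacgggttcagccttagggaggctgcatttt
receptor 2, TRBV13-2 with TRBJ2-3: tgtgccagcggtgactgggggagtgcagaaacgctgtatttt

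DKO T cells differed from WT T cells at 17 of the 38 genes: 7 rose and 10 fell. The members that fell furthest were the surface receptors Cd6 and Cd5, the adaptor Grap2 and the Ras activator Rasgrp1, while the inhibitor Sla, the NF-kB subunit Nfkb1 and the kinase Zap70 rose most. A gene is called here when its adjusted p is below 0.05 in the quasi-likelihood test of edgeR, with the Benjamini-Hochberg adjustment made over all genes tested, and fold changes are log2 values ± standard error. Of all 13700 genes tested, 43.4% were called, with 22.7% higher and 20.7% lower, and of the members 44.7%, a share close to that of the whole table. Their median log2 fold change was −0.04, against −0.01 over all genes tested. The groups did not overlap at 12 members, 4 higher and 8 lower in DKO, against 34.1% of all genes. Without the young DKO libraries the calls of Cd3d, Cd2, Ubash3a and Dgka were lost, and 1 fit of all 21 libraries lost those and Lcp2, Rasgrp1, Nfatc1 and Ptpn22.

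After a first transplantation, 10 of 38 members differed from DKO: the kinase Tec rose and 9 fell, among them Cd2, Lat, Ubash3a, Dgka and Lck. That is 26.3% of the members, whose median log2 fold change was −0.31, against 0.02 over all genes tested. The background was 19.7% of 13954 genes, 11.7% higher and 7.97% lower. TX1 and DKO did not overlap at 8 members, 1 higher and 7 lower in TX1, against 18.9% of all genes. The count moved with the DKO libraries described as young: without them 0 members were called, and of all genes 0 were called higher and 3 lower, against 1631 and 1112 with them. The lowest adjusted p among members was then 0.0786, at Lat, whose log2 fold change was −1.91 ± 0.31 without the young libraries and −1.96 ± 0.25 with them. Without them the log2 fold change was −1.64 ± 0.37 at Ubash3a, −1.29 ± 0.30 at Dgka and −0.75 ± 0.19 at Lck. The count also moved with TX1 replicate 1, without which 4 members rose and 17 fell.

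After a second transplantation, 21 of 38 members differed from DKO: 3 rose and 18 fell, the largest falls being at Malt1, Lat, Dgka, Themis and Plcg1. The background was 51.7% of 14034 genes, 25.6% higher and 26.1% lower, and among members 7.89% rose and 47.4% fell. The groups did not overlap at 10 members, all lower in TX2, against 33.3% of all genes. The median log2 fold change of the members was −0.54, against −0.01 over all genes tested. Summing the TX2 libraries by receptor left 2 TX2 samples. Then 1 member rose (Ubash3b) and 9 fell (Lck, Lat, Plcg1, Bcl10, Malt1, Nfatc3, Ptpn22, Ubash3a and Dgka). The other 11 calls were lost: Cd3e, Cd5, Fyn, Txk, Tec, Grap2, Grb2, Themis, Prkcq, Rela and Sla. Without the young DKO libraries the calls of Cd3e, Tec, Grap2, Themis, Prkcq and Ubash3a were lost.

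In TX2 against TX1, edgeR called 0 of the 38 members, 5 of which had an unadjusted p below 0.05, and DESeq2 called 1, Sla. In this comparison 0.0431% of 13907 genes were called, 0.0216% in each direction, and the groups did not overlap at 0 members, against 3.93% of all genes. The TX1 and TX2 comparisons share the same DKO libraries, so they are not separate evidence of a common change.

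**Figure D1:**
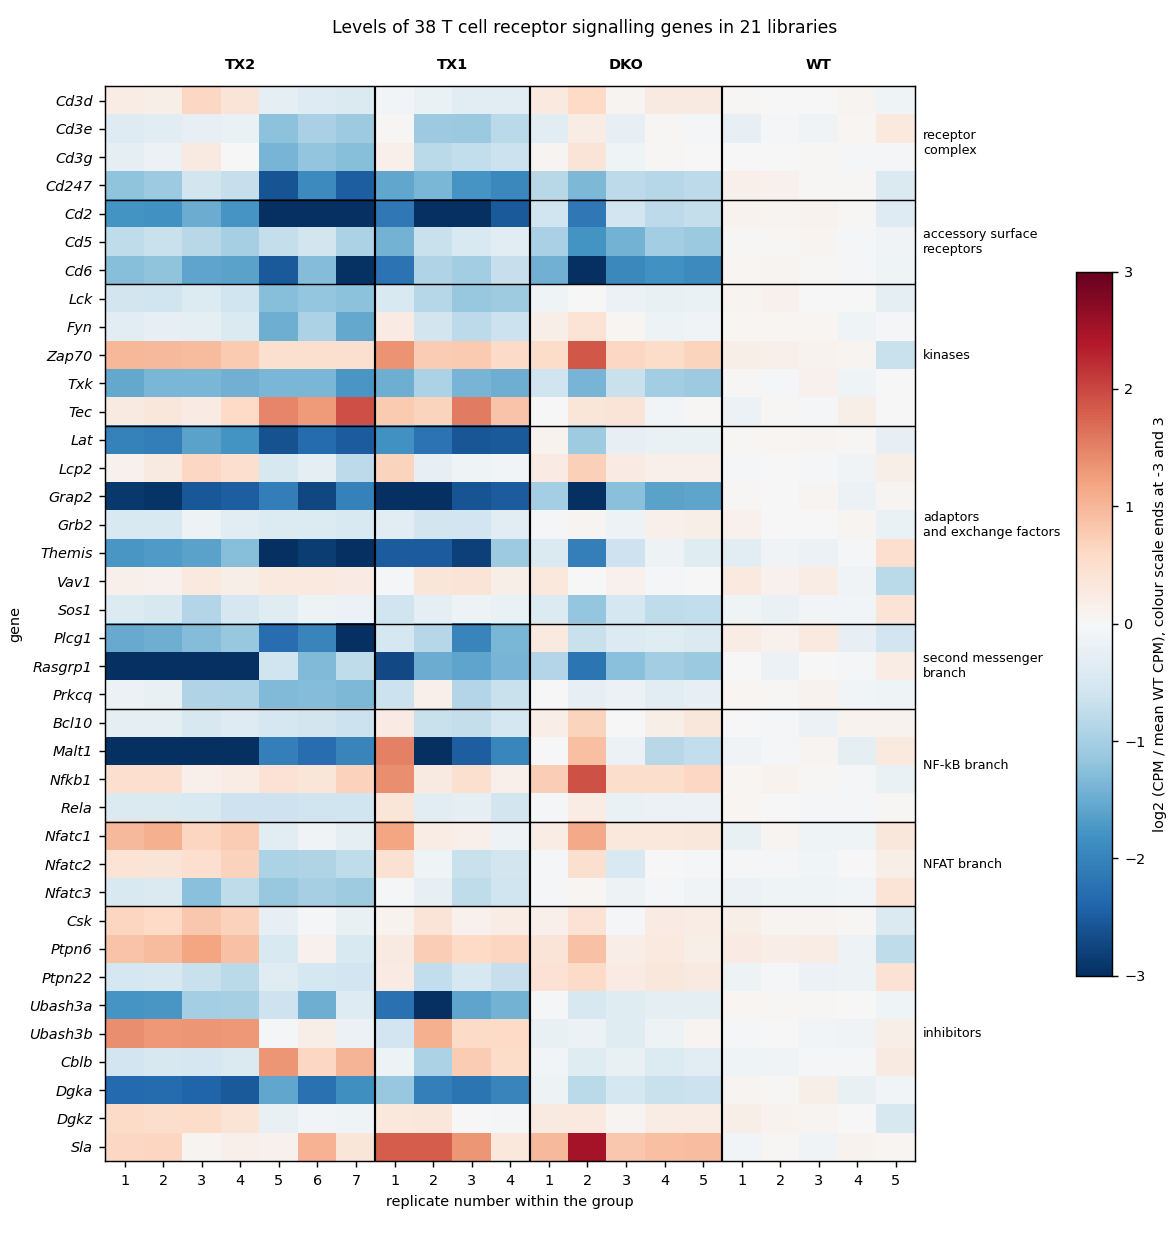
Level of each of the 38 genes (rows, by role) in each of the 21 libraries (columns, TX2 to WT), as the log2 ratio of its CPM to the mean WT CPM on a colour scale from −3 to 3. Within TX2 the columns of replicates 1 to 4 and 5 to 7 form separate blocks at Cd2, Themis, Rasgrp1 and Malt1, and Malt1 stands out in TX1 replicate 1.

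The receptor complex was present throughout. Cd3d, Cd3e and Cd3g encode the CD3 delta, epsilon and gamma chains and Cd247 the zeta chain, which carries most of the phosphorylation motifs of the complex. Cd247 averaged 177 ± 90.6 CPM in TX2, 139.7 ± 23.7 in TX1, 234 ± 34.7 in DKO and 438 ± 66.7 in WT. It fell in DKO against WT (log2 fold change −0.89 ± 0.14, adjusted p = 0.000556) and in TX1 against DKO (log2 fold change −0.73 ± 0.16, adjusted p = 0.0152), but was not called in TX2 against DKO (log2 fold change −0.42 ± 0.34, adjusted p = 0.32). Of its exon bases, 60.29% are shared with Gm16565 or Pou2f1 in the annotation. Cd3d rose in DKO, with 486 ± 63.9 CPM against 391 ± 19.6 CPM in WT (log2 fold change 0.33 ± 0.10, adjusted p = 0.022), and fell in TX1, with 334 ± 27.0 CPM (log2 fold change −0.53 ± 0.11, adjusted p = 0.0156). Its TX2 level of 418 ± 118 CPM did not pass the test against DKO (log2 fold change −0.24 ± 0.19, adjusted p = 0.31). Cd3e averaged 266 ± 76.7 CPM in TX2 against 382 ± 59.9 CPM in DKO and fell (log2 fold change −0.54 ± 0.20, adjusted p = 0.0397). Cd3g was called in none of the 4 comparisons; it ran at 285 to 916 CPM in TX2, 433 to 839.5 in TX1, 694 to 991 in DKO and 737 to 775 in WT. The DKO call of Cd3d was lost without the young DKO libraries (log2 fold change 0.39, adjusted p = 0.0526) and in 1 fit of all libraries (log2 fold change 0.31, adjusted p = 0.164). Several calls rested on 1 library: in TX1 against DKO, Cd3d and Cd247 were lost without TX1 replicate 3 (adjusted p = 0.0526 and 0.0503), whereas Cd3e (log2 fold change −0.92, adjusted p = 0.00314) and Cd3g (log2 fold change −0.78, adjusted p = 0.00287) passed without TX1 replicate 1. In TX2 against DKO, Cd3e was lost without any one of TX2 replicates 5, 6 and 7 or DKO replicates 2, 4 and 5, with adjusted p up to 0.0954.

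All 3 accessory surface receptors fell in DKO against WT, where 20.7% of all genes fell. Cd2 is an adhesion receptor that binds CD48 in the mouse, and Cd5 and Cd6 are related scavenger-type receptors that dampen the signal. Cd5 (GENCODE M21 gene on GRCm38, as for the positions of genes below, chr19:10717116-10739002, minus strand) had 342, 195, 249.5, 326 and 308 CPM in the 5 DKO libraries, against 683, 684, 714, 638 and 627 CPM in the 5 WT libraries. Every DKO library lay below every WT library (log2 fold change −1.22 ± 0.14, adjusted p = 0.0001). Cd6 (chr19:10789341-10830058, minus strand) had 235, 27.5, 166, 182 and 171 CPM in DKO, against 667, 677, 661, 616 and 583 CPM in WT. The groups again did not overlap, and DKO replicate 2 was lowest (log2 fold change −2.02 ± 0.40, adjusted p = 0.0023). Without that library the Cd6 fold change was −1.74 (adjusted p = 2.67e-06).

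Cd2 (chr3:101275899-101287939, minus strand) had 134, 132, 168, 137, 16.4, 12.9 and 15.2 CPM in the 7 TX2 libraries and 106, 46.0, 18.1 and 81.7 CPM in TX1. It had 307, 105, 315, 271 and 287 CPM in DKO and 500.1, 497, 502, 479.7 and 357 CPM in WT. The 3 TX2 libraries of receptor 2 and the TX1 library of receptor 2 were the lowest of the 21, and all 5 WT libraries lay above all DKO libraries. The fall passed the test in DKO against WT (log2 fold change −0.84 ± 0.25, adjusted p = 0.017) and in TX1 against DKO (log2 fold change −2.02 ± 0.52, adjusted p = 0.0273). The DKO call was lost without the young DKO libraries (log2 fold change −0.91, adjusted p = 0.0587) and in 1 fit of all libraries (log2 fold change −0.86, adjusted p = 0.322). In TX2 against DKO edgeR gave log2 fold change −1.57 ± 0.67, adjusted p = 0.0672, and DESeq2 called it. The TX1 call was lost without TX1 replicates 2 or 4 or DKO replicates 1, 3, 4 or 5 taken singly, with adjusted p up to 0.0724.

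In TX2 Cd5 rose against DKO, the opposite direction to its fall in DKO against WT. TX2 libraries had 396, 421, 377, 336, 407, 455 and 344 CPM and TX1 libraries 251, 420.2, 489 and 539.9 CPM. TX2 gave log2 fold change 0.44 ± 0.14, adjusted p = 0.0183 against DKO and TX1, where the test was not passed, log2 fold change 0.60 ± 0.24, adjusted p = 0.115, and every TX2 and TX1 library lay below every WT library. Cd6 had 265, 278, 214, 209.9, 112, 258 and 82.6 CPM in TX2 and 139, 342, 312 and 399 CPM in TX1, with no call in TX2 (log2 fold change 0.36 ± 0.44, adjusted p = 0.521) or TX1 (log2 fold change 0.95 ± 0.52, adjusted p = 0.232) against DKO. The Cd5 call in TX2 was lost when the libraries were summed by receptor (log2 fold change 0.50, adjusted p = 0.111).

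**Figure D2:**
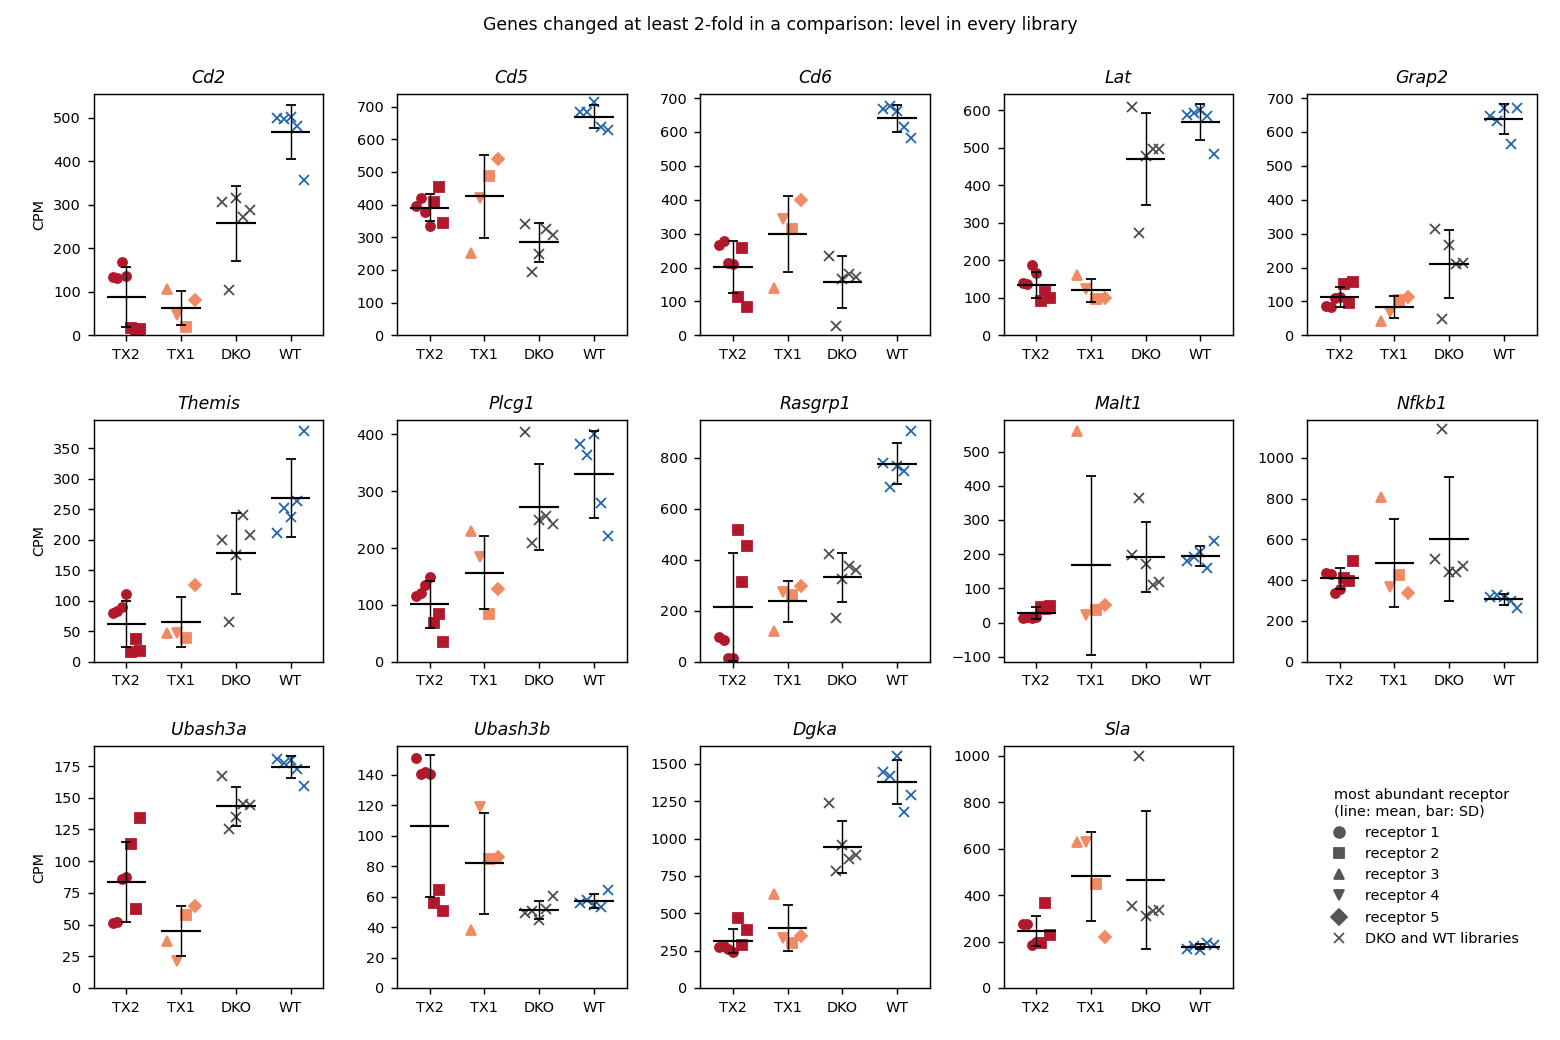
CPM in every library for the 14 members called at an absolute log2 fold change of at least 1 in a comparison (linear axes, which start at 0 except at Malt1, where an SD bar reaches below it; groups TX2, TX1, DKO and WT from left to right), with group mean lines, SD bars and marker shapes by receptor. Lat sits at 92.8 to 188 CPM in TX2 and 95.7 to 162 in TX1, below every DKO library at 273 to 608.

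Among the kinases, Lck, which starts the phosphorylation cascade, was lower after both transplantations. It averaged 565 ± 139.6 CPM in TX2 and 541 ± 124 CPM in TX1, against 887 ± 55.5 CPM in DKO, and neither group overlapped DKO (TX2 log2 fold change −0.67 ± 0.16, adjusted p = 0.00445; TX1 log2 fold change −0.70 ± 0.14, adjusted p = 0.0133). Lck was not called in DKO against WT (log2 fold change −0.12 ± 0.10, adjusted p = 0.351). Fyn, a second Src-family kinase, fell in TX2 to 349.9 ± 122 CPM, against 592 ± 96.8 CPM in DKO (log2 fold change −0.78 ± 0.24, adjusted p = 0.0181), and did not pass in TX1 (log2 fold change −0.46 ± 0.22, adjusted p = 0.167). The TX2 call of Fyn was lost with the TX2 libraries summed by receptor. Zap70, the kinase that binds the phosphorylated CD3 and zeta chains, rose in DKO: the libraries had 436, 1087, 464, 442 and 475 CPM, against 336, 332, 325, 318 and 187 CPM in WT. Every DKO library was above every WT library, and replicate 2 stood far above the rest (log2 fold change 0.98 ± 0.28, adjusted p = 0.0154). Without it the rise was 0.62 (adjusted p = 0.0106). Zap70 in TX2, at 416 to 595 CPM, and in TX1, at 446 to 767 CPM, was not called against DKO.

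Txk and Tec belong to the Tec family, whose members act on Plcg1. Txk averaged 50.4 ± 4.64 CPM in TX2, 55.9 ± 10.2 in TX1, 72.6 ± 16.3 in DKO and 138 ± 9.63 in WT. It fell in DKO against WT (log2 fold change −0.91 ± 0.14, adjusted p = 0.000501) and again in TX2 against DKO (log2 fold change −0.55 ± 0.13, adjusted p = 0.00415). Tec was the kinase that rose, to 27.0 ± 13.4 CPM in TX2 and 26.8 ± 8.28 CPM in TX1, against 14.8 ± 2.27 CPM in DKO (TX2 log2 fold change 0.84 ± 0.30, adjusted p = 0.0368; TX1 log2 fold change 0.87 ± 0.21, adjusted p = 0.021). The highest TX2 values were those of the 3 libraries with receptor 2, at 36.8, 32.4 and 50.7 CPM. The Tec call in TX1 was lost without DKO replicate 1, 4 or 5 (adjusted p up to 0.0573), and in TX2 without any one of TX2 replicates 5 to 7 or DKO replicates 1, 3, 4 and 5 (up to 0.0806). With the TX2 libraries summed by receptor, the TX2 calls of Txk and Tec were both lost.

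Lat, the membrane scaffold on which the signalling complex forms, fell in both transplanted groups. Lat (chr7:126363824-126369570, minus strand) had 140.4, 136, 188, 165, 92.8, 114 and 101 CPM in TX2 and 162, 122, 95.7 and 99.6 CPM in TX1. It had 608, 273, 479, 495 and 496 CPM in DKO and 588, 593, 599, 584 and 484 CPM in WT. No transplanted library reached the lowest DKO library, replicate 2 (log2 fold change −1.83 ± 0.21, adjusted p = 3.8e-05 in TX2; log2 fold change −1.96 ± 0.25, adjusted p = 0.00551 in TX1), and DKO against WT was not called (log2 fold change −0.26 ± 0.17, adjusted p = 0.24). Both calls were kept without any single library, and TX2 summed by receptor gave −1.82 ± 0.33 (adjusted p = 0.00927). The TX1 call was lost without the young DKO libraries (log2 fold change −1.91, adjusted p = 0.0786). It was also lost with a block for replicate number and with libraries numbered 1 to 3 alone.

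The promoter of Lat is shown because the study removes enzymes that act on methylated CG sites, and Lat was the adaptor with the largest fall in TX2. The 250 bases of RefSeq sequence before its start (GRCm38.p6, chr7:126369569-126369818, minus strand, read 5′ to 3′ along the gene) hold 6 CG sites, in capitals, and 50.4% of the 32851 promoters in the table hold at least as many:
Lat promoter: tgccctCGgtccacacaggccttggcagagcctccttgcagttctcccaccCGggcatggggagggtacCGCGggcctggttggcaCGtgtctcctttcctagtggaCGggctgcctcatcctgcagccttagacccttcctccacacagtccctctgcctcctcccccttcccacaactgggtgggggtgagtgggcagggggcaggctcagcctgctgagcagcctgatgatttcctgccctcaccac

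Grap2, also called Gads, links Lat to Lcp2 and fell in DKO and again in TX2. Grap2 (chr15:80572594-80652854, plus strand) had 313, 47.8, 266, 209 and 214 CPM in DKO, against 648, 632, 670.1, 563 and 672 CPM in WT. The groups did not overlap (log2 fold change −1.59 ± 0.36, adjusted p = 0.00473), and DKO replicate 2 was far below the other 4. In TX2 the libraries had 85.7, 82.6, 109, 114, 152, 95.4 and 156 CPM and in TX1 42.5, 69.1, 106 and 112 CPM. The further fall was called in TX2 against DKO (log2 fold change −0.91 ± 0.35, adjusted p = 0.0443) and not in TX1 (log2 fold change −1.33 ± 0.50, adjusted p = 0.0941), where it passed without DKO replicate 2. The TX2 call was lost without any one of TX2 replicates 1 to 4 and 6 or DKO replicates 1, 3, 4 and 5, with adjusted p up to 0.134.

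Themis, a T cell adaptor that acts with the phosphatase Ptpn6, fell in TX2. Themis (chr10:28668360-28883818, plus strand) had 80.1, 83.1, 88.8, 111, 15.5, 37.5 and 17.0 CPM in TX2 and 47.6, 47.3, 38.2 and 126 CPM in TX1. It had 199.6, 65.0, 175, 240.2 and 207 CPM in DKO and 211, 251, 236, 264 and 378 CPM in WT. The receptor 2 libraries of TX2 were lowest, and DKO replicate 2 lay within the TX2 range (log2 fold change −1.54 ± 0.50, adjusted p = 0.0222). The call was lost without DKO replicate 4 (adjusted p = 0.0527) and with the libraries summed by receptor (log2 fold change −1.60, adjusted p = 0.101). In TX1 against DKO it was not called (log2 fold change −1.43 ± 0.46, adjusted p = 0.0593), but passed without TX1 replicate 4 or without DKO replicate 2.

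The other adaptors and exchange factors moved less. Grb2, which brings Sos1 to Lat, averaged 157 ± 12.6 CPM in TX2 and 150.2 ± 14.6 CPM in TX1, against 211 ± 20.1 CPM in DKO, and fell in both (TX2 log2 fold change −0.45 ± 0.08, adjusted p = 0.000783; TX1 log2 fold change −0.48 ± 0.11, adjusted p = 0.018). Its TX1 call was lost without TX1 replicate 2 or 3 or DKO replicate 4 or 5 (adjusted p up to 0.0598). The TX2 call of Grb2 was lost with the TX2 libraries summed by receptor. Sos1, a Ras exchange factor, fell in DKO to 45.7 ± 8.57 CPM, against 74.5 ± 14.2 CPM in WT (log2 fold change −0.69 ± 0.15, adjusted p = 0.00407), with no overlap. Lcp2, the adaptor SLP-76, rose in DKO to 613 ± 108 CPM, against 493 ± 38.4 CPM in WT (log2 fold change 0.34 ± 0.12, adjusted p = 0.044); the call was lost without DKO replicate 3 or any one of WT replicates 1 to 4 (adjusted p up to 0.0989). Vav1, an exchange factor for Rac, was not called in any comparison and lay within 216 to 241 CPM in TX2, 187 to 258 in TX1, 192 to 244 in DKO and 112 to 241 in WT.

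**Figure D3:**
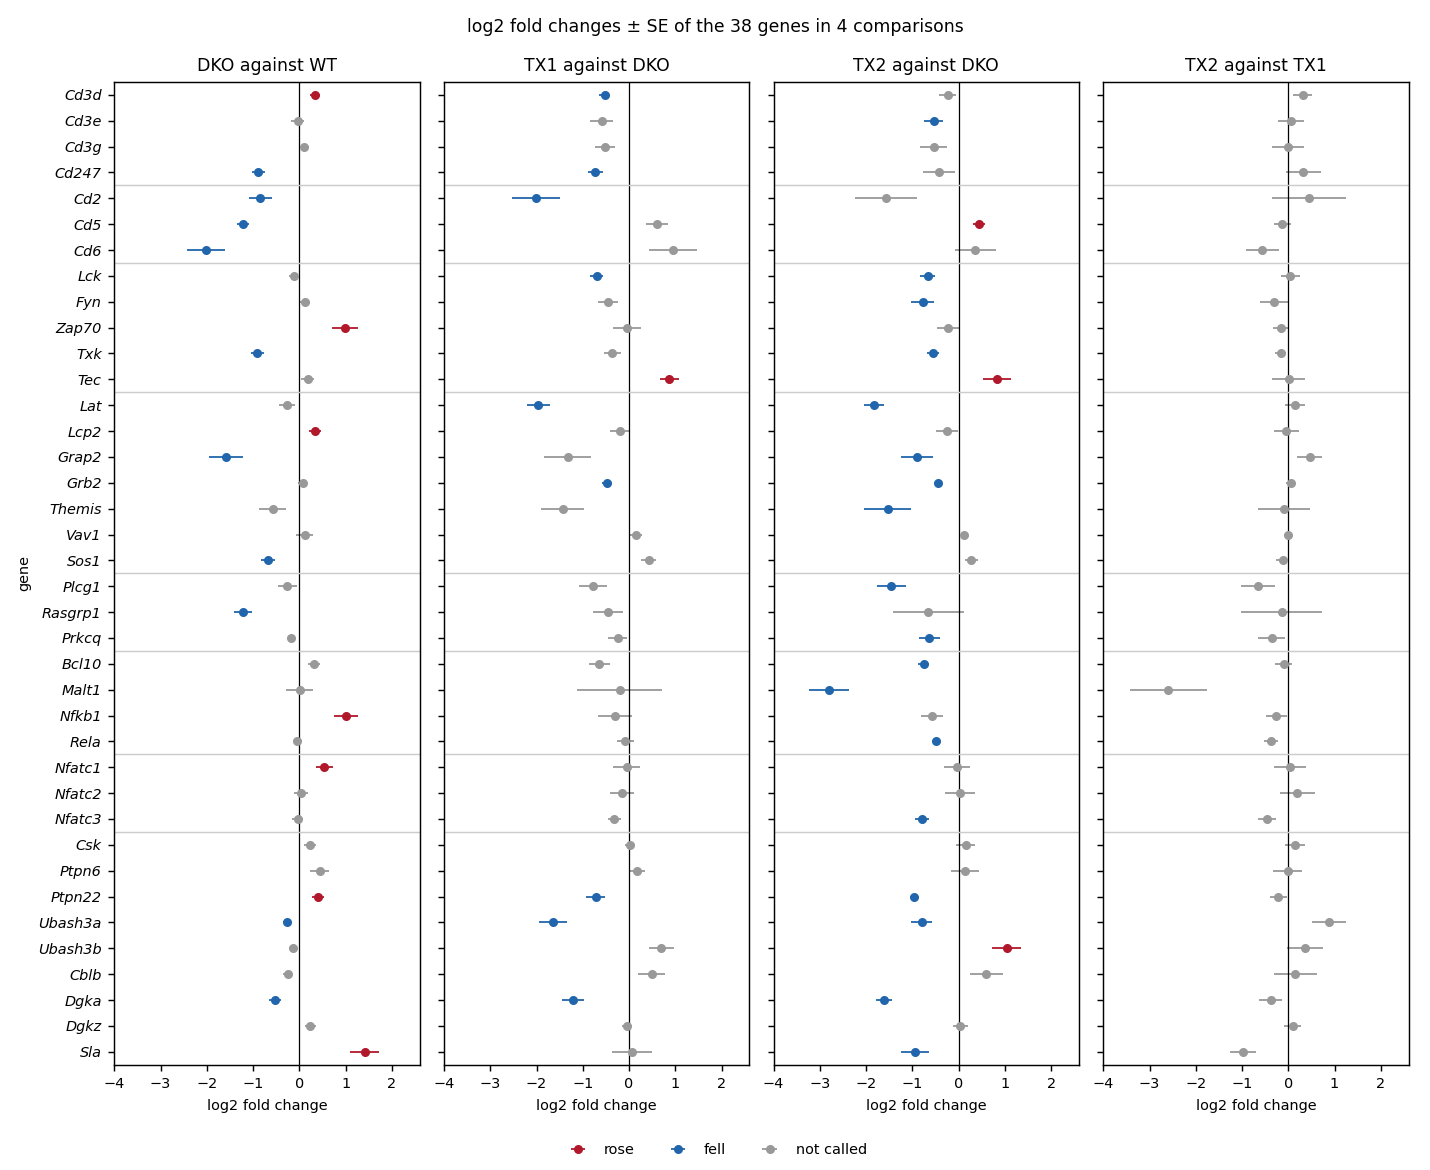
Log2 fold change ± SE of each of the 38 genes in 4 panels (DKO over WT, TX1 over DKO, TX2 over DKO, TX2 over TX1), with called genes marked. The points for TX2 over DKO lie mostly left of 0, with Malt1, Lat, Dgka, Cd2 (not called), Themis and Plcg1 furthest. Malt1 has the widest bar in TX1 over DKO.

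The second messenger branch fell in TX2 against DKO at 2 of its 3 genes, where 26.1% of all genes fell. Plcg1, the phospholipase itself (chr2:160731300-160775760, plus strand), had 116, 120.4, 134, 149, 67.3, 83.8 and 33.9 CPM in TX2 and 231, 184, 84.2 and 129 CPM in TX1. It had 404, 209, 249, 256 and 243 CPM in DKO and 384, 364, 402, 280.2 and 221 CPM in WT. All TX2 libraries lay below all DKO libraries, and those of receptor 2 were lowest (log2 fold change −1.45 ± 0.31, adjusted p = 0.00224). In TX1 it was not called (log2 fold change −0.78 ± 0.30, adjusted p = 0.0972), but passed without TX1 replicate 1 (log2 fold change −1.02, adjusted p = 0.0266). Prkcq, the kinase PKC theta, averaged 273 ± 103 CPM in TX2 against 418 ± 37.9 CPM in DKO (log2 fold change −0.63 ± 0.22, adjusted p = 0.0325). That call was lost without any one of TX2 replicates 3 to 7 or DKO replicates 1, 2, 3 and 5, with adjusted p up to 0.0749.

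Rasgrp1, which answers diacylglycerol by activating Ras, fell in DKO and then differed more among TX2 libraries than any other member. Rasgrp1 (chr2:117279993-117343001, minus strand) had 423, 170.4, 325, 375 and 361 CPM in DKO, against 781, 686, 769, 747 and 904 CPM in WT. Every DKO library lay below every WT library (log2 fold change −1.22 ± 0.20, adjusted p = 0.000701), a call lost in 1 fit of all libraries (log2 fold change −1.23, adjusted p = 0.189). TX2 libraries had 98.7, 84.7, 16.0 and 15.6 CPM with receptor 1 and 516, 311 and 456 CPM with receptor 2, and TX1 libraries had 118, 275, 261 and 296 CPM. TX2 thus spanned 33.1-fold, with replicates 3 and 4 lowest and replicates 5 and 7 above every DKO library, and the comparison with DKO was not called (log2 fold change −0.66 ± 0.77, adjusted p = 0.497). Its promoter is printed because its levels differ most among TX2 libraries. The RefSeq start used lies inside the GENCODE gene given above, so part of the window overlaps that gene. The 250 bases before this RefSeq start (GRCm38.p6, chr2:117342878-117343127, minus strand, read along the gene) hold 21 CG sites, in capitals, and 16.3% of all promoters hold at least as many:
Rasgrp1 promoter: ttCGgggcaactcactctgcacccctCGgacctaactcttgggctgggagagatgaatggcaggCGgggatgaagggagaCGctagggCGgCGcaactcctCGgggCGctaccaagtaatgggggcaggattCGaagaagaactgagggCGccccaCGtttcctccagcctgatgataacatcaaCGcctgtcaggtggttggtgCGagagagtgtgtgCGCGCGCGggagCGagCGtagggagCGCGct

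In the NF-kB branch 3 of 4 members, Bcl10, Malt1 and Rela, fell in TX2 against DKO, as did 26.1% of all genes. TX2 and DKO did not overlap at those 3, against 33.3% of all genes in either direction. The branch was not tested as a set. Bcl10 and Malt1 act together between Prkcq and the kinase of the NF-kB inhibitor, and Malt1 is also a protease. Malt1 had 14.6, 14.8, 13.3, 17.1, 46.8, 40.2 and 49.5 CPM in TX2 and 560.0, 21.7, 35.4 and 50.4 CPM in TX1. It had 198, 364, 172, 109.8 and 117 CPM in DKO and 181, 191, 205, 160.4 and 239 CPM in WT. TX2 lay below all DKO libraries (log2 fold change −2.80 ± 0.44, adjusted p = 0.000305), while TX1 replicate 1 was the highest of all 21 libraries and the other 3 TX1 libraries were all below DKO. The TX1 comparison was not called with all libraries (log2 fold change −0.20 ± 0.92, adjusted p = 0.899) and was called without replicate 1 (log2 fold change −2.40 ± 0.48, adjusted p = 0.00637). TX2 against TX1 gave log2 fold change −2.60 ± 0.83, adjusted p = 0.127 with all libraries and −0.33 (adjusted p = 0.753) without TX1 replicate 1. Summed by receptor, TX2 against DKO gave −2.64 ± 0.69 (adjusted p = 0.0286).

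Bcl10 averaged 40.9 ± 4.03 CPM in TX2 against 68.2 ± 12.4 CPM in DKO (log2 fold change −0.76 ± 0.12, adjusted p = 0.000232). Rela, the p65 subunit of NF-kB, averaged 142 ± 8.71 CPM in TX2 against 195 ± 25.2 CPM in DKO (log2 fold change −0.48 ± 0.09, adjusted p = 0.000668). The Rela call was lost with the TX2 libraries summed by receptor. Nfkb1, which encodes the p105 precursor of the p50 subunit (chr3:135584655-135691547, minus strand), had 506, 1143, 441, 440.3 and 471 CPM in DKO, against 318, 329.5, 315, 298 and 266 CPM in WT. It was higher in every DKO library, most of all in replicate 2 (log2 fold change 1.00 ± 0.26, adjusted p = 0.00958), and without replicate 2 the rise was 0.63 (adjusted p = 0.00036). In TX2 it had 337, 412 and 495 CPM as its lowest, median and highest values, which did not pass the test against DKO (log2 fold change −0.58 ± 0.23, adjusted p = 0.054), but passed without any one of DKO replicates 3, 4 and 5.

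Of the NFAT factors, the transcription factors that calcineurin sends to the nucleus, Nfatc3 fell in TX2 to 338 ± 78.3 CPM, against 579 ± 31.2 CPM in DKO, with no overlap (log2 fold change −0.80 ± 0.15, adjusted p = 0.000804). Nfatc1 rose in DKO to 544 ± 162 CPM, against 382 ± 62.1 CPM in WT (log2 fold change 0.54 ± 0.19, adjusted p = 0.0374), a call that was lost without any one of WT replicates 1 to 4 (adjusted p up to 0.0907). Within TX2, Nfatc1 had 755, 803, 597 and 644 CPM with receptor 1 and 308, 357 and 318 CPM with receptor 2. Nfatc2 had 183, 179, 193 and 220.3 CPM with receptor 1 and 71.3, 72.7 and 80.4 CPM with receptor 2, against 99.3 to 190.4 CPM in DKO. Both genes therefore lay on either side of most DKO libraries, and their pooled fold changes against DKO were −0.03 ± 0.28 and 0.03 ± 0.32, with no call.

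Among the 9 inhibitors, 4 fell and 1 rose in TX2 against DKO. These calls are 55.6% of the inhibitors, close to the 51.7% called among all genes. Dgka, a diacylglycerol kinase that removes the messenger Rasgrp1 responds to, fell in DKO against WT and again in both transplanted groups against DKO. Dgka (chr10:128720134-128744855, minus strand) had 271, 279.5, 259.5, 239, 466, 290.4 and 387 CPM in TX2 and 630.2, 335, 301 and 346 CPM in TX1. It had 1238, 781, 956, 859.7 and 887 CPM in DKO and 1448, 1418, 1551, 1176 and 1292 CPM in WT. Neither transplanted group overlapped DKO (TX2 log2 fold change −1.62 ± 0.17, adjusted p = 2.32e-05, and TX1 log2 fold change −1.22 ± 0.24, adjusted p = 0.0114). Both calls were kept without any single library. The TX1 call was lost without the young DKO libraries (log2 fold change −1.29, adjusted p = 0.0926). It was also lost with a block for replicate number and with libraries numbered 1 to 3 alone. DKO against WT gave log2 fold change −0.52 ± 0.13, adjusted p = 0.00657, with DKO replicate 1 above the lowest WT library, and this call was lost without the young DKO libraries (log2 fold change −0.43, adjusted p = 0.0713) and in 1 fit of all libraries (log2 fold change −0.54, adjusted p = 0.051). One of its 4 promoters in the table is shown as the inhibitor with the largest fall: the 250 bases before that start (GRCm38.p6, chr10:128745085-128745334, minus strand, read along the gene) hold 3 CG sites, in capitals, and 71.0% of all promoters hold at least as many:
Dgka promoter: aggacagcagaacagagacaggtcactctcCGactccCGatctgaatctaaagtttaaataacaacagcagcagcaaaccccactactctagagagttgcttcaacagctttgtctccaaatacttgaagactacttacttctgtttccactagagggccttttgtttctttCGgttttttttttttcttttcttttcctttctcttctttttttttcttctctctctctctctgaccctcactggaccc

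The related kinase Dgkz was not called in any comparison, at 871 ± 209 CPM in TX2, 806 ± 112 in TX1, 838 ± 45.9 in DKO and 722 ± 119 in WT.

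Ubash3a and Ubash3b encode the Sts proteins, of which that of Ubash3b is a phosphatase that acts on Zap70. In TX2 Ubash3a fell and Ubash3b rose. Ubash3a (chr17:31207873-31246892, plus strand) had 50.9, 52.0, 85.7, 87.3, 113, 62.5 and 134 CPM in TX2 and 37.1, 21.2, 57.8 and 64.7 CPM in TX1, against 167, 125, 134, 145 and 144 CPM in DKO. TX1 lay below DKO without overlap (log2 fold change −1.64 ± 0.30, adjusted p = 0.00986), and TX2 fell with replicate 7 inside the DKO range (log2 fold change −0.80 ± 0.23, adjusted p = 0.0123), a call lost without the young DKO libraries (log2 fold change −0.79, adjusted p = 0.0572). Ubash3b (chr9:41011098-41161697, minus strand) had 151, 141, 142, 140.4, 55.6, 64.4 and 50.7 CPM in TX2 and 38.4, 119, 84.7 and 85.8 CPM in TX1, against 49.0, 50.6, 44.4, 51.7 and 60.1 CPM in DKO. It rose in TX2 (log2 fold change 1.04 ± 0.31, adjusted p = 0.0141), where receptor 1 libraries lay at 140.4 to 151 CPM and receptor 2 libraries at 50.7 to 64.4 CPM. In DKO against WT, Ubash3a was lower (log2 fold change −0.26 ± 0.08, adjusted p = 0.0285), a call lost without any one of DKO replicates 2 to 5 or WT replicates 1 to 4 (adjusted p up to 0.0818), and Ubash3b was not called (log2 fold change −0.14 ± 0.09, adjusted p = 0.261).

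Sla, the adaptor SLAP that lowers surface receptor levels, rose in DKO. Sla (chr15:66780819-66831829, minus strand) had 351, 999, 312, 330.0 and 336 CPM in DKO, against 167, 181, 165, 193 and 184 CPM in WT. Every DKO library was higher (log2 fold change 1.42 ± 0.32, adjusted p = 0.00427), and without DKO replicate 2 the rise was 0.93 (adjusted p = 1.19e-05). TX2 libraries had 274, 276, 187, 198, 194, 367 and 228 CPM and TX1 libraries 628, 627, 446 and 219.9 CPM. TX2 fell against DKO (log2 fold change −0.94 ± 0.31, adjusted p = 0.0221), a call that was lost without DKO replicate 2 (log2 fold change −0.44, adjusted p = 0.0553). Against TX1 the difference was −0.97 ± 0.28 with adjusted p = 0.105, and it passed without TX1 replicate 4.

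Ptpn22, a phosphatase that acts on Lck and Zap70, rose in DKO to 320.1 ± 32.1 CPM, against 246 ± 50.1 CPM in WT (log2 fold change 0.40 ± 0.13, adjusted p = 0.0298). It then fell to 167 ± 16.4 CPM in TX2 (log2 fold change −0.96 ± 0.09, adjusted p = 9.29e-06) and 192 ± 67.4 CPM in TX1 (log2 fold change −0.72 ± 0.20, adjusted p = 0.0346), relative to DKO. The DKO call was lost without any one of WT replicates 1 to 4 (adjusted p up to 0.0793), and the TX1 call without any single library other than TX1 replicate 1 (up to 0.0983). Csk, which phosphorylates the inhibitory site of Lck, Ptpn6, the phosphatase SHP-1, and Cblb, a ubiquitin ligase, were called in none of the 4 comparisons. Ptpn6 averaged 321 ± 135 CPM in TX2 and 287 ± 64.5 CPM in DKO. Cblb averaged 256 ± 153 CPM in TX2 and 166 ± 16.4 CPM in DKO, with a wide spread in TX2. Csk averaged 678 ± 203 CPM in TX2 and 603 ± 70.5 CPM in DKO.

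TX2 libraries divided by receptor at many of the 38 genes. The libraries of each receptor are repeated samples that share an alpha and a beta chain, and receptor 1 libraries are male and receptor 2 libraries female, so sex and receptor cannot be told apart; the values are therefore a description with no test. Receptor 1 and receptor 2 libraries did not overlap at 26 of 38 members, 20 higher and 6 lower with receptor 1, against 49.7% of all genes, 24.9% in each direction. At 13 members they also differed at least 2-fold in mean, against 19.0% of all genes. Higher with receptor 1 were Cd2 (9.63-fold), Themis (3.89), Cd247 (2.7), Nfatc2 (2.59), Ubash3b (2.52), Cd3g (2.40), Ptpn6 (2.31), Nfatc1 (2.13) and Plcg1 (2.11). Higher with receptor 2 were Rasgrp1 (7.95-fold), Malt1 (3.05), Cblb (2.86) and Tec (2.32). Cd2 averaged 143 ± 16.8 CPM with receptor 1 (n = 4) and 14.8 ± 1.78 CPM with receptor 2 (n = 3), and Cblb averaged 143 ± 5.99 CPM with receptor 1 and 408 ± 98.0 CPM with receptor 2. Ptpn6 averaged 424 ± 44.8 CPM with receptor 1 and 183 ± 44.6 CPM with receptor 2.

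TX1 replicate 3 carried receptor 2 one transplantation earlier. At 12 of the 13 members that parted the receptors 2-fold, it lay closer on the log2 scale to the receptor 2 mean of TX2 than to the receptor 1 mean, against 63.2% of the 2670 genes that parted them in the whole table. Its Cd2 level was 18.1 CPM and its Cblb level 339.8 CPM. Over all 38 members it was closer to its own receptor at 27, but lay inside the TX2 range of receptor 2 at 10 and inside that of receptor 1 at 8. It is 1 library, female like the TX2 libraries of receptor 2.

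**Figure D4:**
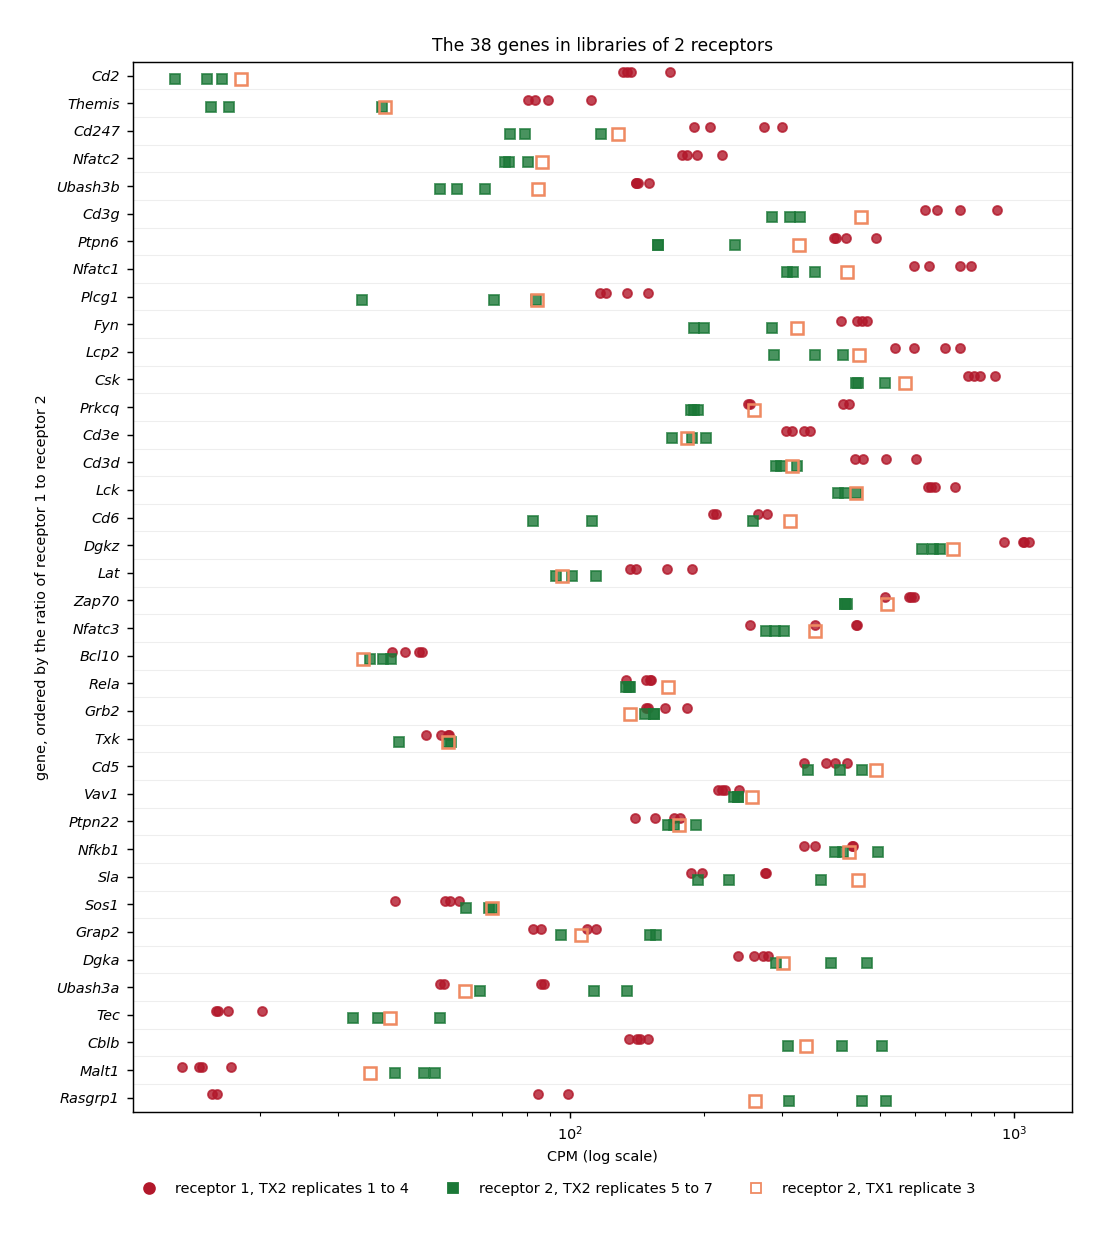
CPM (log axis) of the 38 genes in TX2 libraries with receptor 1 (replicates 1 to 4) and receptor 2 (replicates 5 to 7) and in TX1 replicate 3, which carries receptor 2, with genes ordered by the ratio of the receptor means. Cd2 and Themis stand at the receptor 1 end and Rasgrp1 and Malt1 at the receptor 2 end, and TX1 replicate 3 lies on the receptor 2 side at both ends.

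Among the 38 genes, the median spread among libraries of a group was wider after transplantation. The ratio of the highest to the lowest library had a median over the 38 genes of 2.07 in TX2, 2.00 in TX1, 1.53 in DKO and 1.29 in WT. It passed 3-fold for 12 members in TX2, 6 in TX1, 6 in DKO and 0 in WT, and was largest for Rasgrp1 in TX2 (33.1-fold), Malt1 in TX1 (25.9-fold), Cd6 in DKO (8.53-fold) and Vav1 in WT (2.15-fold). The numbers of libraries differ, which bears on such ratios. The ratios were not computed over all genes, so whether the members differ from other genes in spread was not tested. DKO replicate 2, the female library led by 1 receptor, was the highest DKO library for 19 members and the lowest for 13. TX1 replicate 1 was the highest TX1 library for 21, and WT replicate 5 was the highest WT library for 13 and the lowest for 17.

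Per kilobase of annotated exon, Lck stood at or near the top in every group. Lck was first in DKO (303 ± 18.9 CPM per kb) and WT (334 ± 36.4), and second in TX2 (193 ± 47.7) and TX1 (185 ± 42.4). Cd3d was first in TX2 at 230.3 ± 65.2 CPM per kb and Zap70 in TX1 at 187 ± 47.5, in each case within the spread of Lck over the libraries. Dgka was second in WT (289 ± 30.6 CPM per kb) and ranked 4 in DKO (198 ± 36.9), but ranked 12 in TX2 (65.8 ± 17.3) and 11 in TX1 (84.7 ± 32.0). Cd2 ranked 16 in TX2 (50.5 ± 39.8) and 24 in TX1 (36.1 ± 22.2), against 8 in DKO (148 ± 49.8) and 3 in WT (268 ± 35.7). Malt1 was the lowest of the 38 in TX2, at 1.55 ± 0.920 CPM per kb, against 10.7 ± 5.71 in DKO.

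Of the members, 32 were matched to a promoter in the RefSeq table, and Cd2, Cd6, Malt1, Nfkb1, Nfatc1 and Sla were not. RefSeq starts can differ from those of GENCODE: the Grap2 window, chr15:80623233-80623482, lies inside its annotated gene. The 250-base windows held a median of 6 CG sites, the same as over all promoters, and 30 of 32 held at least 1, against 92.1% of all. At most 5 sites were found in 14 of 32, against 49.6% of all promoters. The letters CG were searched on 1 strand, since the complement reads the same, and such a count says nothing about methylation in these cells.

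Beyond the 38, a list of 102 other genes of the pathway was examined in the same fits. In DKO against WT, 26 of 100 tested rose and 20 fell, with a median log2 fold change of 0.04; over all genes 22.7% rose and 20.7% fell, so these shares are close to those of the whole table. The largest rises were at the Ras-pathway inhibitor Spry2, with 12.8 ± 15.1 CPM in DKO against 0.639 ± 0.368 CPM in WT (log2 fold change 4.34 ± 0.86, adjusted p = 0.00209), the adaptor Gab2 (log2 fold change 4.05 ± 0.63, adjusted p = 0.000554) and the ubiquitin ligase Rnf128, with 32.5 ± 21.6 CPM in DKO against 2.19 ± 0.977 CPM in WT (log2 fold change 3.92 ± 0.52, adjusted p = 0.000231). Ctla4, the inhibitory counterpart of Cd28, averaged 134 ± 69.8 CPM in DKO against 27.9 ± 9.71 CPM in WT (log2 fold change 2.29 ± 0.35, adjusted p = 0.000525). Lyn, a Src-family kinase of B and myeloid cells, and the phosphatase Dusp4 also rose (log2 fold change 2.38 ± 0.66, adjusted p = 0.0133; log2 fold change 2.04 ± 0.32, adjusted p = 0.000586).

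In TX1 against DKO, 5 of 101 rose and 15 fell, with a median log2 fold change of −0.21; these are 4.95% and 14.9%, against 11.7% and 7.97% of all genes. Blk, a Src-family kinase best known from B cells, averaged 126 ± 146 CPM in TX1 against 3.19 ± 3.77 CPM in DKO (log2 fold change 5.33 ± 1.25, adjusted p = 0.0203). The adaptor Shb rose (log2 fold change 2.12 ± 0.39, adjusted p = 0.00986), and Btk, a Tec-family kinase of B and myeloid cells, fell (log2 fold change −1.84 ± 0.50, adjusted p = 0.0341). Summed B cell markers were at most 61.2 CPM in TX1 and 116 in DKO, and their part in these values was not tested.

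In TX2 against DKO, 8 of 101 rose and 38 fell, which is 7.92% and 37.6% against the 25.6% and 26.1% of all genes given above. The NF-kB list fell at 10 of 14 genes and rose at 0, with a median log2 fold change of −0.66. The calcium and NFAT list fell at 8 of 14 and rose at 0, with a median of −0.35. Among the Ras and MAPK genes 4 rose and 7 fell of 21, and among adaptors 2 rose and 7 fell of 20. Cd4 was all but absent, with 1.57 ± 0.595 CPM in TX2 against 1414 ± 254 CPM in DKO (log2 fold change −9.83 ± 0.33, adjusted p = 1.59e-08), and the sort of the transplanted cells did not use it. Ctla4 averaged 4.32 ± 4.35 CPM in TX2 against 134 ± 69.8 CPM in DKO (log2 fold change −4.98 ± 0.58, adjusted p = 3.91e-05). Tnfaip3, the NF-kB inhibitor A20, averaged 51.4 ± 16.8 CPM in TX2 against 268 ± 154 CPM in DKO (log2 fold change −2.41 ± 0.36, adjusted p = 0.000206), and Fyb, an adaptor that binds Lcp2, averaged 116 ± 66.7 CPM in TX2 against 389 ± 67.2 CPM in DKO (log2 fold change −1.78 ± 0.36, adjusted p = 0.00149). Blk rose (log2 fold change 3.10 ± 1.03, adjusted p = 0.0248) and Themis2 fell (log2 fold change −3.18 ± 1.10, adjusted p = 0.0291). In TX2 against TX1, 0 of 100 were called by edgeR.

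**Figure D5:**
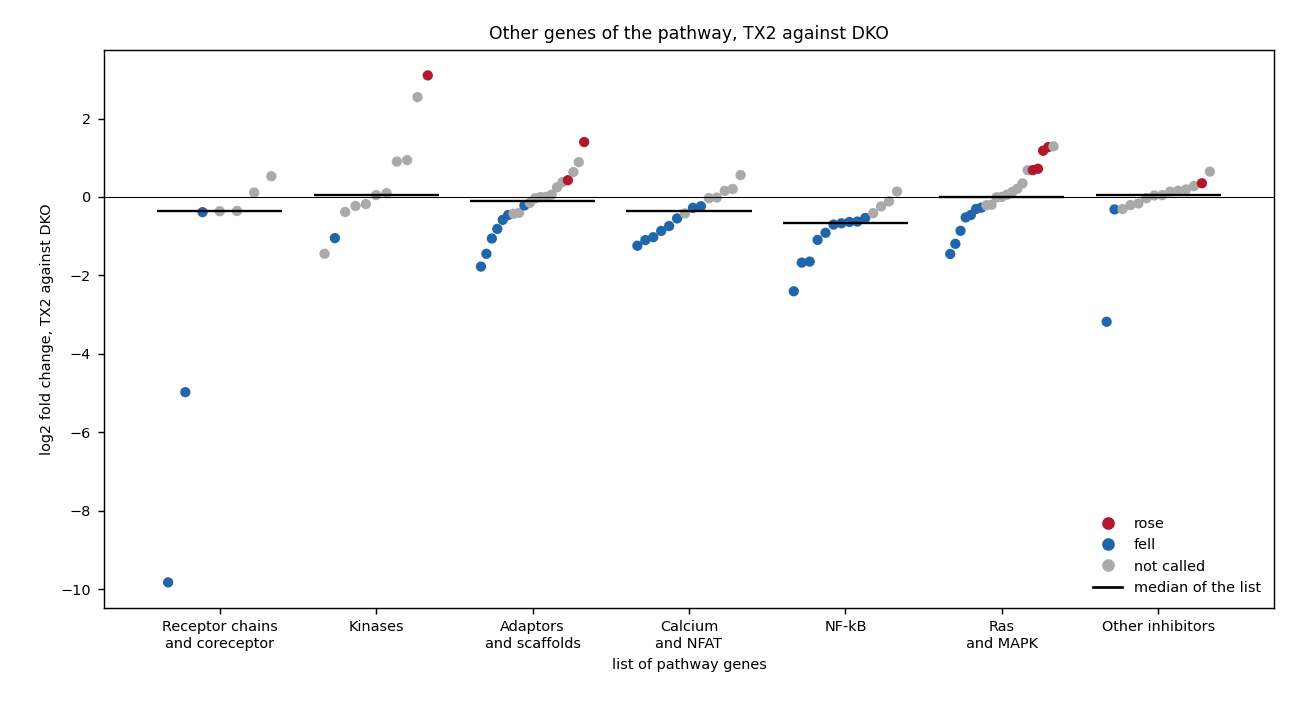
Log2 fold change of TX2 over DKO for the other genes of the pathway in 7 lists (1 point a gene, coloured by call, with a bar at each list's median). In the NF-kB list 10 of 14 genes are called below 0 and the median is −0.66, while the medians of the kinases and of the Ras and MAPK genes lie at 0.05 and 0.00.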

How the data were processed

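RNA from sorted splenic T cells was sequenced, and the authors deposited counts, whole numbers of reads for each Ensembl gene with the columns STAR writes; the unstranded column was used. The submitters' processing notes name fastp 0.21.0, STAR 2.7.5a, DESeq2, mm10 and GRCm38, with no role or settings. The deposited clonotype tables give counts of reads per receptor rearrangement for the alpha or beta chain. No source here names the tool that made them. Exact Clopper-Pearson 95% intervals below cover counting error only, since PCR copies are not independent molecules. Of 55487 genes, 55227 matched the GENCODE M21 annotation of GRCm38. Summary lines that name no gene, 16.8 to 23.4% of a library, were left out of library sizes. Because unstranded counts cannot part overlapping genes on opposite strands, members with such partners are named in the opening as less certain.

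Each pair of groups was fitted alone over all genes with edgeR 4.0.16 in R 4.3.3 (TMM normalization, filterByExpr, robust quasi-likelihood fit, two-sided test, Benjamini-Hochberg adjustment), and only the members' results are printed. No covariate was used: sex is nearly confounded with group, and the replicate numbers are not stated to pair samples. Levels are CPM with TMM factors over all 21 libraries, and tables were joined in Python 3.11.15 with pandas 2.3.3. The fits were tested on simulated data. Nothing says that libraries are separate clones, and transplanted libraries share receptors, so p-values measure only the spread between these libraries. Alternatives were DESeq2 1.42.0, its size factors in edgeR, no filter on low counts, 1 fit of all libraries, a replicate block, males alone, no young libraries, subsets by library number, TX2 summed by receptor, each library left out in turn and, added after seeing the data, WT replicates 2 and 5 summed. Values in every library are given for members called at an absolute log2 fold change of at least 1 in any comparison, and for a few others chosen after their values were seen. Other pathway genes were named if called at an absolute log2 fold change of at least 1.5, up to 6 per comparison; 1 gene that met this rule is not reported here. The members and lists were chosen with earlier results of these data known. No protein sequences or genome sequence were used here.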

Additional observations from a re-analysis of the deposited data

Results flagged for a closer look

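Within each group of 4 to 7 libraries, the gap between the highest or lowest library and its nearest neighbour was divided by the range of the group, for each of the 38 genes. In 30 of 152 sets this share passed Dixon's 95% critical value for that number of libraries. The critical value is made for independent normal values, whereas CPM were used and the sets share libraries, so no rate expected by chance is given. The 30 sets are 19.7% of the members' sets, against 11.6% of the sets of all 15144 genes tested. By group it held for 0 of 38 members in TX2, against 6.41% of all genes, and for 10 of 38 (26.3%) in each of TX1, DKO and WT, against 13.1%, 11.9% and 14.8% of all genes. Where TX2 libraries divide by receptor, the gap beside a single library is a small share of the range, so the TX2 count says little.

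In TX1, 1 library stood apart at 10 genes. Replicate 1 was high for Malt1 (560.0 CPM), Cd3g (839.5), Lcp2 (782.9), Fyn (653.6), Dgka (630.2) and Bcl10 (65.6). Replicate 2 was high for Prkcq (529.1) and Txk (71.0), replicate 3 for Tec (39.1) and replicate 4 for Themis (125.7).

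In DKO, replicate 2, the female library in which 1 receptor took 77.9% of alpha chain reads, was high for Nfkb1 (1143 CPM), Zap70 (1087), Sla (999.0), Nfatc1 (833.2), Lcp2 (803.4), Ptpn6 (399.5) and Rela (238.6) and low for Cd247 (172.5) and Cd2 (105.0). Replicate 1 was high for Plcg1 (403.6). In WT, replicate 5 was high for Nfatc3 (804.2), Ptpn22 (335.2), Cblb (243.5), Nfatc2 (155.3) and Sos1 (99.6) and low for Lat (484.0), Csk (386.3), Cd2 (357.2), Cd247 (322.2) and Zap70 (187.2). The DKO and WT group values of these genes include those libraries. What sets these libraries apart was not tested.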

How the results depend on the processing

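Calls by comparison, as higher and lower members, moved with the libraries used. In DKO against WT (7 higher, 10 lower), 1 fit of all 21 libraries gave 3 and 6, libraries numbered 1 to 3 alone 2 and 5, and those numbered 4 and over 2 higher. In TX1 against DKO (1 higher, 9 lower), 1 fit gave 2 higher. The replicate block, removal of the young DKO libraries and libraries numbered 1 to 3 alone each gave 0 and 0, while libraries numbered 4 and over gave 8 and 28. That last fit sets 1 TX1 library, assumed to vary like the others, against the 2 young DKO libraries, so its counts have no replicate check in TX1. In TX2 against DKO (3 higher, 18 lower), the replicate block gave 1 higher, male libraries, all of receptor 1, 8 higher, libraries numbered 4 and over 9 lower, and TX2 summed by receptor 1 and 9. In TX2 against TX1 (0 and 0), 1 fit gave 1 and 2, and DESeq2 gave 1 lower. The cause of these shifts was not tested; fewer libraries entered the subsets. Leaving out each library in turn gave 4 to 7 higher and 9 to 11 lower in DKO against WT, 0 to 4 and 5 to 17 in TX1 against DKO, 2 to 4 and 15 to 17 in TX2 against DKO, and 0 and 0 to 1 in TX2 against TX1; 13 of 17, 4 of 10 and 15 of 21 calls were kept without any single library. The replicate numbers are not stated to pair the samples. Correlations of same-numbered libraries ran from −0.069 to 0.326, −0.166 to 0.197, −0.117 to 0.17 and −0.183 to 0.272 in the 4 comparisons. With 4 or 5 pairs in each, they cannot decide whether the numbers pair samples. Under the replicate block, DKO against WT lost Lcp2 and gained Ptpn6.

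In 5 cases a member not called in the fit reported above was called with the other sign: Malt1 in DKO against WT with libraries numbered 4 and over (−0.78, adjusted p = 0.044), Sla in TX1 against DKO with TX1 replicate 4 as the 1 TX1 library (−0.55, adjusted p = 0.000136, no replicate check), and, in TX2 against DKO with males alone, Zap70 (0.31), Nfatc1 (0.56) and Cblb (−0.26). No called value changed sign among 2962 values; 175 changed sign with neither called. WT replicates 2 and 5 summed kept all 17 calls.

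Over all genes, higher and lower calls of 3110 and 2841 in DKO against WT were 1878 and 1339 with libraries numbered 4 and over, and lower calls were 1883 in 1 fit, 1722 without the young and 1564 with those numbered 1 to 3. The 1631 and 1112 of TX1 against DKO were 32 and 38 with the block, 745 and 668 in males, 0 and 3 without the young, 0 and 0 with those numbered 1 to 3, 1950 lower by DESeq2, 4327 and 4635 with 4 and over (1 TX1 library, not comparable with the rest), and 810 to 2643 and 471 to 2756 without single libraries. The 3587 and 3668 of TX2 against DKO were 1814 and 1638 with 4 and over, and 2089 lower when summed. The 3 and 3 of TX2 against TX1 were 681 and 757 by DESeq2, 5 and 8 with no filter, 559 and 1135 in 1 fit, 323 and 240 with the block, 477 and 362 in males, 0 and 0 with 4 and over (1 TX1 library) or summed, and 0 to 606 and 0 to 712 without single libraries. Reads limit the members little: the scarcest had 309 in its lowest library. TX2 holds 2 main receptors.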
